A study of Mus musculus with 8 samples.

Results

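The 10 genes described here encode the pathway that makes fatty acids from carbohydrate carbon in the liver cell, with its helper Thrsp, its transcription factor gene Srebf1 and the lipid droplet enzyme gene Pnpla3. They are Acly, Me1, Acaca, Fasn, Thrsp, Elovl6, Elovl5, Scd1, Pnpla3 and Srebf1. They were chosen by gene symbol, not by their values, and they account for 10 of 20738 genes and 17 of 31465 gene-named features (spots) on each array. Livers came from male CD-1 mice, an outbred stock, after 7 days on a diet with 0 ppm (control) or 2500 ppm NaPB, sodium phenobarbital, a barbiturate that activates the hepatocyte receptor CAR. There were 4 one-colour Agilent arrays of liver RNA per diet, and no allele, transgene or other agent is named for either diet. Whether each array stands for its own mouse is not labelled, and the p-values below therefore measure the spread between arrays, which may be technical.

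In this pathway, citrate exported from mitochondria is cleaved to acetyl-CoA by ATP citrate lyase (Acly), and malic enzyme (Me1) supplies NADPH. Acetyl-CoA carboxylase (Acaca) makes malonyl-CoA, and fatty acid synthase (Fasn) builds palmitate from it. Elongases of the Elovl family then lengthen the chain, and stearoyl-CoA desaturase (Scd1) introduces a double bond. In liver the genes are known to be driven by feeding, insulin and thyroid hormone, chiefly through SREBP-1c (from Srebf1), ChREBP and LXR.

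With all 8 arrays, none of the 10 genes passed the test for a diet difference. Elovl6 had the largest difference among them, a geometric mean intensity 4.03-fold higher on the NaPB diet. Thrsp was 2.47-fold and Pnpla3 2.09-fold higher by the same measure, Scd1 2.05-fold and Elovl5 1.84-fold lower. The NaPB arrays were not alike: Elovl6 and Thrsp lay above every control array on NaPB replicates 1, 2 and 3, and below every control array on NaPB replicate 4. Without NaPB replicate 4, Elovl6 and Thrsp rose (7.51-fold and 4.30-fold), and none of the other 8 passed. None of the 10 fell in either fit. The test was limma's moderated linear model on log2 intensity, with p adjusted over all 20738 genes and a threshold of 0.05. It called 1.01% of all genes with 8 arrays and 1.76% without NaPB replicate 4 (0.391% and 1.02% counting genes higher on NaPB, 0.617% and 0.743% counting genes lower).

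The intensities are on the authors' scale, on which the 75th percentile of all spots of an array lay between 0.952 and 0.974. Control replicate 1 and NaPB replicate 4 stood apart on the arrays as a whole, with the lowest weights when limma estimated array quality (0.308 and 0.313, against 1.14 to 1.98 for the others). NaPB replicate 4 was the lowest of the 8 arrays for 28.3% of all genes, and for 53.6% of the 5185 genes of highest mean log2 intensity. It was the lowest for 8 of the 10 genes here. Of the 10 genes, 8 belong to those 5185, and NaPB replicate 4 was the lowest for 7 of these 8. NaPB replicate 2 held 3443 distinct values, against 62756 to 62839 on the other arrays, so its values are coarser, with a median step of 0.00318 log2 units between neighbouring values of gene-named features. The summed intensity of 8 hepatocyte markers ran from 3847 to 6282 on the control arrays and from 3295 to 4514 on NaPB replicates 1 to 3, and was 2579 on NaPB replicate 4. Serpina1a made up most of each sum (2990 to 4740 on control, 2089 to 3634 on NaPB arrays), and the markers did not share a direction. Alb (320 to 611 against 109 to 281) and Apoa1 (322 to 589 against 181 to 233) were lower on NaPB without overlap, as were 4.31% of all genes. Hnf4a and Asgr1 had log2 differences of 0.29 and 0.45, and none of the 8 was called. All 7 adipocyte markers, among them Adipoq, Plin1 and Lep, stayed below an intensity of 2 on every array, with sums of 3.01 to 4.99 on control and 3.88 to 4.30 on NaPB arrays. The sums of 7 Kupffer cell and macrophage markers did not overlap (22.9 to 27.0 on control, 16.8 to 20.2 on NaPB), and Timd4 was at the array's floor throughout. Of 4 neutrophil markers S100a8 alone rose (limma adjusted p = 0.018), from 0.246 to 0.464 on control arrays to 46.3, 126 and 71.0 on NaPB replicates 1 to 3 and 2.02 on NaPB replicate 4, which was again the lowest NaPB array. The part of these cells in the results was not tested. In liver RNA, fewer cells of a type and less RNA per cell cannot be told apart.

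**Figure D1:**
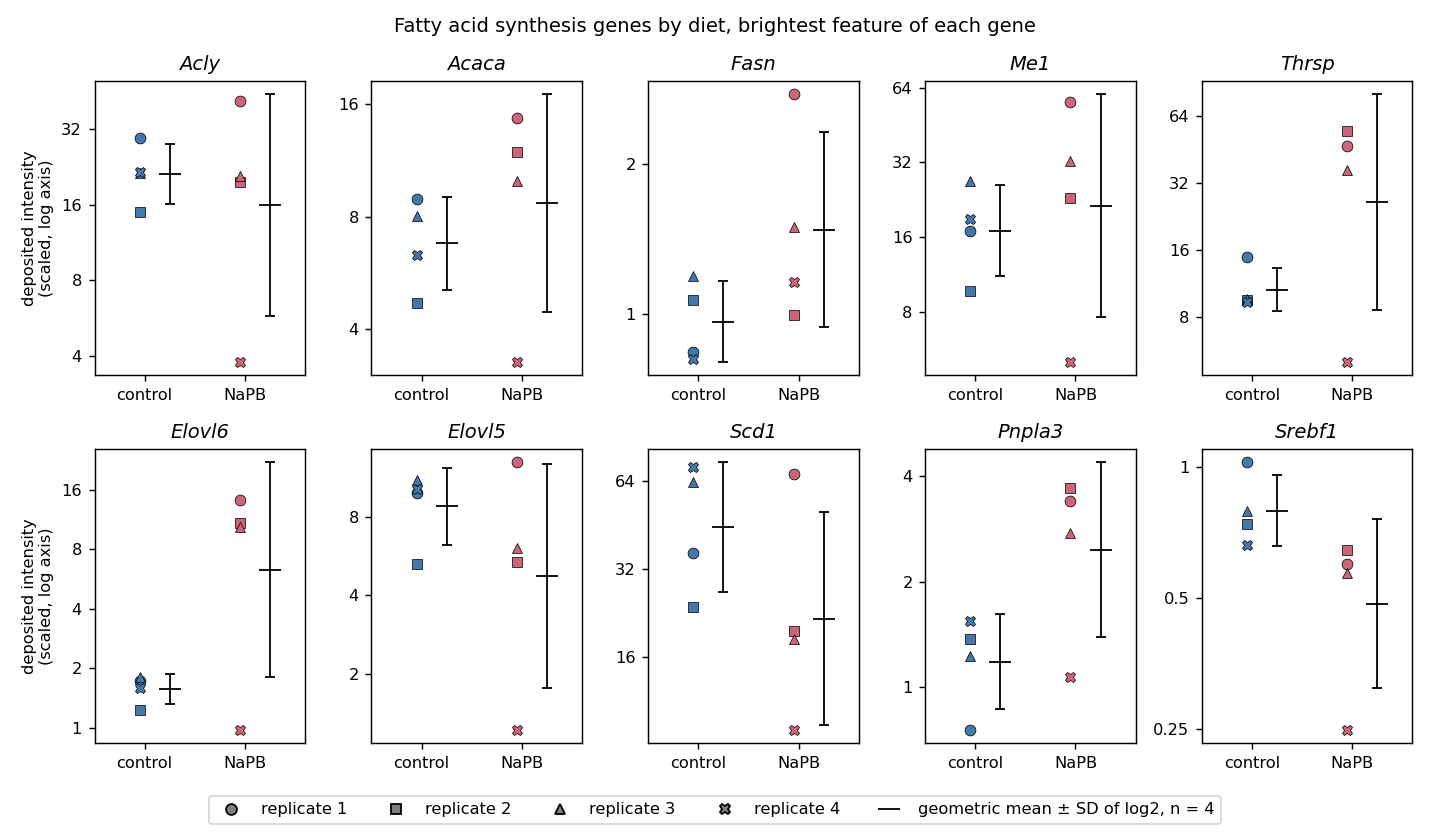
Deposited intensity (log axis) of the 10 genes on the 4 control (blue) and 4 NaPB (red) arrays, brightest feature of each gene, with marker shapes for replicate numbers and bars for the geometric mean ± SD of log2 values. NaPB replicate 4 (cross) lies far below the other NaPB arrays for Elovl6 (0.973 against 10.4 to 14.3) and Thrsp (5.01 against 36.6 to 55.0).

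Elovl6 encodes the elongase that lengthens palmitate to stearate. Its only feature read 1.71, 1.22, 1.80 and 1.59 on control replicates 1 to 4, and 14.3, 10.9, 10.4 and 0.973 on NaPB replicates 1 to 4. The control arrays lay close together (log2 SD 0.25, n = 4), and the NaPB arrays were widely spread (log2 SD 1.81, n = 4), replicate 4 lying below every control. The log2 fold change was 2.01 ± 0.72 (SE; limma adjusted p = 0.327). Leaving out NaPB replicate 4 gave 2.91 ± 0.26 (limma adjusted p = 0.00148). Leaving out any other single array gave limma adjusted p between 0.396 and 0.645.

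Thrsp encodes Spot 14, a small acidic protein known to be induced by thyroid hormone and carbohydrate and to act on lipid synthesis. Its only feature read 14.9, 9.56, 9.59 and 9.30 on the control arrays and 47.2, 55.0, 36.6 and 5.01 on NaPB replicates 1 to 4. As with Elovl6, NaPB replicates 1 to 3 stood above all control arrays and NaPB replicate 4 below them. The log2 fold change was 1.31 ± 0.66 (limma adjusted p = 0.573), and 2.10 ± 0.28 without NaPB replicate 4 (limma adjusted p = 0.00916). Mid1ip1, the paralog of Thrsp whose product binds acetyl-CoA carboxylase, read 3.51 to 5.97 on control arrays, 7.44 to 11.8 on NaPB replicates 1 to 3 and 1.52 on NaPB replicate 4. It was not called without NaPB replicate 4 (log2 1.12 ± 0.29, limma adjusted p = 0.105) but was when control replicate 1 was left out too (limma adjusted p = 0.042).

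The 250 bases before the RefSeq start sites of Thrsp and Elovl6 are shown because these genes moved together on NaPB replicates 1 to 3, and those of Elovl5 because this elongase did not (GRCm38.p6 assembly, 5′ to 3′ on the gene's strand). Capitals mark matches to the motifs searched.
Thrsp (chr7:97417551-97417800, minus strand): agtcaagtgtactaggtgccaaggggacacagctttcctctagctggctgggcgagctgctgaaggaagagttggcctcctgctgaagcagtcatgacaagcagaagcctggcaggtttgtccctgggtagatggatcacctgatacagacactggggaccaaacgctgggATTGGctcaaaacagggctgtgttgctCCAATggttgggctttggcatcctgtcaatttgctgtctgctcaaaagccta
Elovl6 (chr3:129532136-129532385, plus strand): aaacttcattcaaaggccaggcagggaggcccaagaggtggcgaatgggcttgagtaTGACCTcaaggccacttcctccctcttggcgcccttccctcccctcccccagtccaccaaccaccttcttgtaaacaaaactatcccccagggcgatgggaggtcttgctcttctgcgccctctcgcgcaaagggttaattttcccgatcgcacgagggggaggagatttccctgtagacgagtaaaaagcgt
Elovl5 (chr9:77917115-77917364, plus strand): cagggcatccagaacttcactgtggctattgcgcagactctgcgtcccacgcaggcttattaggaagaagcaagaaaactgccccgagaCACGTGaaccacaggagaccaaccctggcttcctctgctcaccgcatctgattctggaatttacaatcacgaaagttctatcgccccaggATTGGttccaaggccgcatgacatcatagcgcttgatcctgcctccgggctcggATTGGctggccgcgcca
The motifs were CCAAT (bound by NF-Y), GGGCGG (Sp1), CACGTG (an E-box), TGACCT (a nuclear receptor half-site) and a classical sterol response element of 10 bases, on both strands of windows from 250 bases before to 50 after each start site. Thrsp had CCAAT on both strands, with its leftmost base at −52 and −79 from the start site. Elovl6 had TGACCT at −193 and none of the other motifs. Elovl5 had CCAAT at −17 and −71, both on the opposite strand, and CACGTG at −161.
No motif was shared by Thrsp and Elovl6 in these windows. RefSeq windows were held for 9 of the 10 genes (12 windows; Scd1 is named only). CCAAT was found in 8 of the 12 windows (7 genes) and in 37.4% of all 32851 windows. GGGCGG was in 5 of the 12 (Acly, Me1, Pnpla3 and Srebf1) and in 35.7% of all. CACGTG was in 1 of the 12 (Elovl5; 7.15% of all) and TGACCT in 2 (Elovl6 and Acly; 16.3% of all). The sterol response element, searched as 1 exact run of 10 bases, was in none of the 12 windows. It was in 30 of all 32851 windows (0.0913%), so rare that its absence from these 12 says nothing about these genes. A match here is a run of letters, and says nothing of binding.

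**Figure D2:**
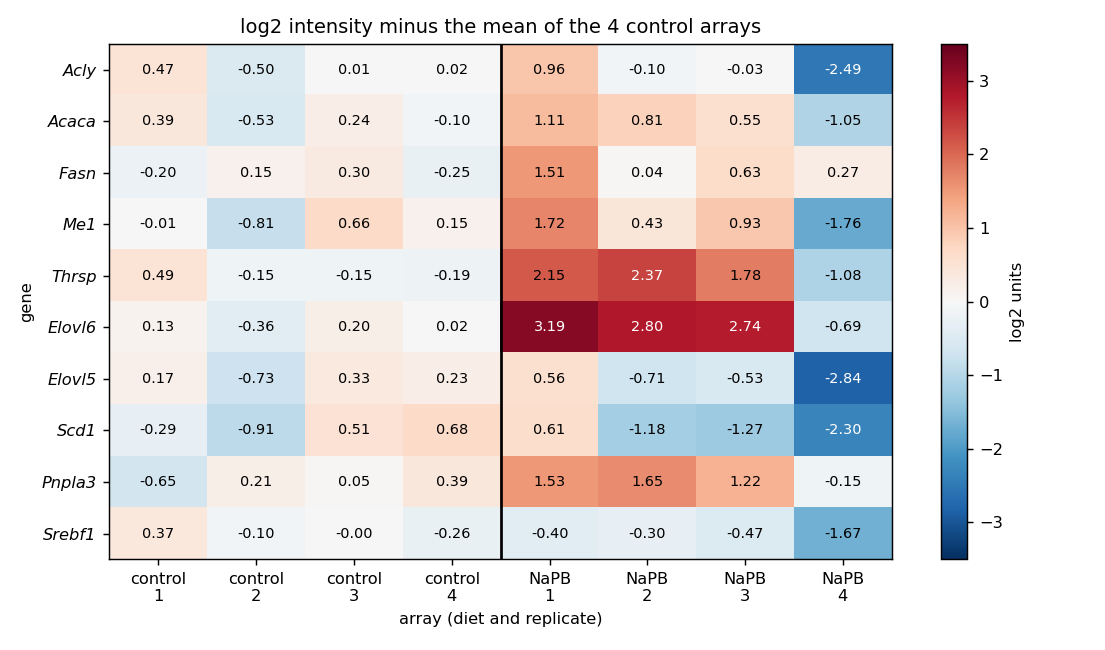
Each cell gives a gene's log2 intensity on 1 array minus its mean over the 4 control arrays (red higher, blue lower; brightest feature of each gene). On NaPB replicates 1 to 3, Elovl6 and Thrsp exceed the control mean by 1.78 to 3.19, and 9 of the 10 genes lie below it on NaPB replicate 4.

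Acly and Me1 feed the pathway with acetyl-CoA and NADPH, and neither was called in any fit run. The brighter feature of Acly read 29.5, 15.01, 21.5 and 21.6 on control arrays and 41.4, 19.8, 20.9 and 3.78 on NaPB replicates 1 to 4. The diets overlapped, with NaPB replicates 2 and 3 inside the control range, and the log2 fold change was −0.41 ± 0.61 (limma adjusted p = 0.885). Its sign was not stable: without NaPB replicate 4 it was 0.28 ± 0.35 (limma adjusted p = 0.796), while the dimmer feature gave −0.59 ± 0.35 with 8 arrays and a mean difference of −0.34 without that array.
Me1 had 3 features, and the brightest read 16.9, 9.70, 26.9 and 18.9 on control and 56.0, 22.9, 32.4 and 5.01 on NaPB arrays. NaPB replicates 1 and 3 exceeded every control array, replicate 2 lay inside the control range and replicate 4 below it. The log2 fold change was 0.33 ± 0.64 (limma adjusted p = 0.918) and became −0.13 without NaPB replicate 1. With NaPB replicate 4 left out the difference of the means was 1.03 for the brightest feature and 1.27 and 1.37 for the others (limma adjusted p = 0.311 for the brightest).

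Acaca and Fasn carry out the committed step and the chain building. The brightest of 4 Acaca features read 8.90, 4.69, 8.03 and 6.32 on control and 14.6, 11.9, 9.96 and 3.27 on NaPB arrays. NaPB replicates 1 to 3 were above all controls and NaPB replicate 4 below them, at a smaller scale than for Elovl6. The log2 fold change was 0.36 ± 0.45 (limma adjusted p = 0.863), and 0.82 ± 0.30 without NaPB replicate 4 (limma adjusted p = 0.252). The features of Acaca did not agree in size: the log2 differences of the other 3 were 0.28, 0.28 and −0.03 with all arrays.
Fasn had 1 feature and a different pattern. It read 0.842, 1.07, 1.19 and 0.813 on control and 2.76, 0.996, 1.497 and 1.16 on NaPB arrays. It was the only gene of the 10 not below its control mean on NaPB replicate 4, and NaPB replicates 1 and 3 stood above all controls. The log2 fold change was 0.61 ± 0.35 (limma adjusted p = 0.642).

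Elovl5, an elongase of polyunsaturated fatty acids, and Scd1, the main liver desaturase of saturated fatty acids, lay on the other side of 0 from Elovl6. Elovl5 read 9.86, 5.26, 11.01 and 10.2 on control and 12.9, 5.35, 6.04 and 1.22 on NaPB arrays. Its log2 fold change was −0.88 ± 0.61 (limma adjusted p = 0.732). NaPB replicates 2 and 3 lay within the control range, replicate 1 above it and replicate 4 below it. In the 7 arrays without replicate 4 the difference was −0.23 ± 0.39 (limma adjusted p = 0.858).
Scd1 read 36.3, 23.7, 63.3 and 71.2 on control and 67.5, 19.5, 18.4 and 8.998 on NaPB arrays. Its log2 fold change was −1.04 ± 0.58 (limma adjusted p = 0.632). NaPB replicates 2, 3 and 4 were below every control array and NaPB replicate 1 was near the top of the control range. Its relative Scd3 had a similar order of values (5.08 to 11.5 on control, and 10.04, 3.60, 2.86 and 1.32 on NaPB replicates 1 to 4) and was not called (log2 −1.18 ± 0.55, limma adjusted p = 0.514). That is the brightest of 3 Scd3 features, whose log2 differences ran from −1.18 to 0.45, and the mean of all 3 gave −0.21. The Scd1 difference without NaPB replicate 4 was −0.62 ± 0.55 (limma adjusted p = 0.703).

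Pnpla3 encodes adiponutrin, a lipid droplet protein known to be a target of SREBP-1c and ChREBP. Its brighter feature read 0.755, 1.37, 1.23 and 1.55 on control and 3.41, 3.71, 2.76 and 1.07 on NaPB arrays. NaPB replicates 1 to 3 were above all controls, and NaPB replicate 4 was inside the control range. The log2 fold change was 1.06 ± 0.42 (limma adjusted p = 0.4) and that of the dimmer feature 1.00 ± 0.43. Pnpla3 did not pass without NaPB replicate 4, with 1.47 ± 0.30 (limma adjusted p = 0.0529), and it was called when control replicate 1 was left out too (1.25 ± 0.23, limma adjusted p = 0.0371). In that fit, without both arrays that stood apart, 3 of the 10 genes rose (Elovl6, Thrsp and Pnpla3) and none fell, where 2.75% of all genes were called and 1.8% were called higher. The same 3 rose when all 8 arrays were kept with array weights, a fit that called 3.92% of all genes and 2.21% higher. That fit gave its lowest weights to control replicate 1 and NaPB replicate 4 (0.308 and 0.313). The weights were estimated from these same values, so it is not separate support.

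Srebf1 encodes the SREBP-1 transcription factors. It read 1.02, 0.737, 0.792 and 0.661 on control and 0.600, 0.645, 0.572 and 0.249 on NaPB arrays. It was the only gene of the 10 whose diets did not overlap over all 8 arrays, being lower on NaPB, as were 4.31% of all genes (2.72% were higher with no overlap, 7.04% in either direction). The gap was narrow, from 0.661 down to 0.645, and the log2 fold change of −0.71 ± 0.35 did not pass (limma adjusted p = 0.551). In the 7 arrays it was −0.39 ± 0.25 (limma adjusted p = 0.559).

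Counted together, 6 of the 10 log2 fold changes were above 0, as were 10622 of all 20738 genes. The median of the 10 was 0.34, against 0.01 over all genes. Without NaPB replicate 4 the medians were 0.78 and 0.05, and without NaPB replicate 1 the median of the 10 was −0.01. The 7 arrays without NaPB replicate 4 were also compared by each gene's brightest feature. Of the 10 genes, 4 (Elovl6, Thrsp, Pnpla3 and Acaca) were higher on NaPB with no overlap, where 10.2% of all genes were. The other Acaca features and the dimmer Pnpla3 feature overlapped between diets on these arrays. Srebf1 was lower with no overlap, as were 5.78% of all genes (16% in either direction). Averaged over the 10 genes, the log2 deviation from the control arrays was 1.29, 0.58 and 0.56 for NaPB replicates 1, 2 and 3, and −1.38 for NaPB replicate 4. On that array the 8 hepatocyte markers had a mean deviation of −0.81 and the 5185 brightest genes a median deviation of −0.49. The part of that array's general shift in these results was not tested.

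**Figure D3:**
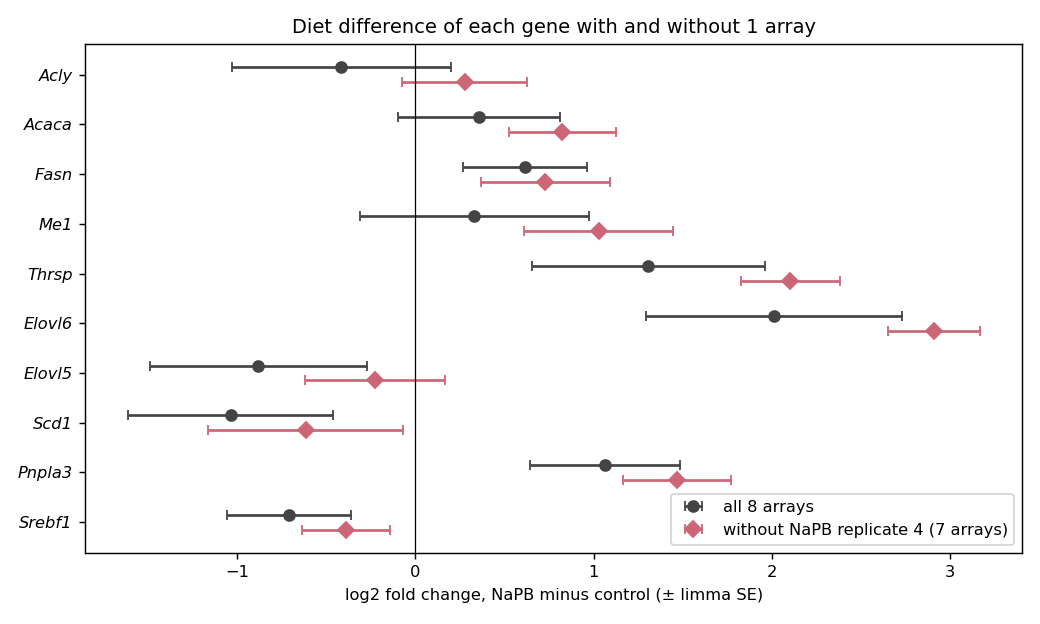
Log2 fold change (NaPB minus control, ± limma SE) of each gene with all 8 arrays (circles) and without NaPB replicate 4 (diamonds). Elovl6 moves from 2.01 to 2.91 and Thrsp from 1.31 to 2.10 with smaller errors, and Acly crosses 0.

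Because NaPB replicate 4 was low for most of these genes, each gene was also set against the mean log2 value of the other 9 on the same array, a difference that a scaling factor per array cannot move. This measure was chosen after the values were seen and is a description without a test. By this measure Elovl6 exceeded its own control mean by 2.10, 2.47, 2.42 and 0.77 (log2) in the 4 NaPB arrays. Its control SD was 0.04, against 0.25 to 0.65 for the other 9 genes. On NaPB replicate 4 the intensity of Elovl6 itself deviated from its control mean by −0.69 (log2). Those of Acly, Scd1 and Elovl5 deviated by −2.49, −2.30 and −2.84. Their low values in the reference raise the measure for Elovl6 on that array by construction. The NaPB arrays of Elovl6 lay above its control arrays without overlap by this measure. The same held for 0.714% of the other 20728 genes when set against the mean of the 10. That mean includes Elovl6, whereas Elovl6 was set against the other 9, so the references differ. On NaPB replicate 4, Fasn and Pnpla3 exceeded their control means by more than Elovl6 did (1.83 and 1.36), though their diets overlapped. Elovl6 and Pnpla3 belong to the 5185 brightest genes and Fasn does not, and the deviation of that array from control differed with intensity (median −0.49 for those 5185, −0.15 for all genes). The part of that difference in the excess of Elovl6 was not tested. Acly, Elovl5 and Scd1 were lower without overlap, with mean differences of −0.75, −1.27 and −1.45. So were 1.96% of the other genes, again set against the mean of all 10. The reference of Acly, Elovl5 and Scd1 holds Elovl6, Thrsp and Pnpla3, so high values of these lower the measure for the rest by construction. On the intensities themselves, Acly and Elovl5 read higher on NaPB replicate 1 than on any control array.
Thrsp was 0.95, 1.99, 1.36 and 0.33 above its control mean, and NaPB replicate 4 lay among the controls.

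**Figure D4:**
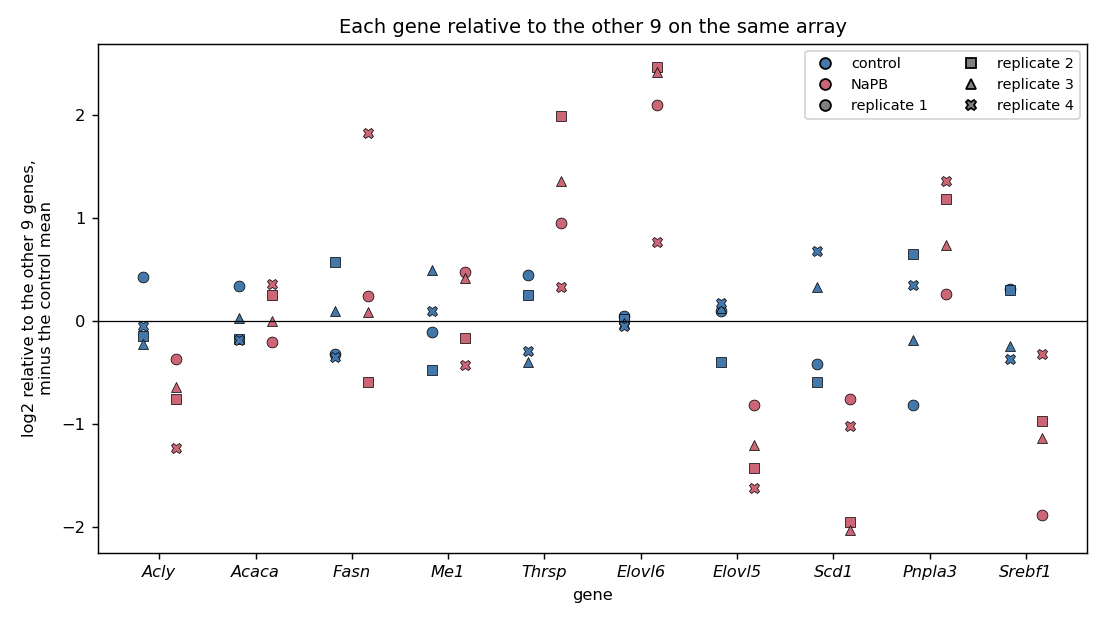
Each gene's log2 intensity relative to the mean of the other 9 genes on the same array, minus the control mean, for control (blue) and NaPB (red) arrays with marker shapes for replicate numbers. By this relative measure Elovl6 is above the controls on all 4 NaPB arrays (0.77 to 2.47). Its own intensity on NaPB replicate 4 is below every control array. Fasn and Pnpla3 lie higher than Elovl6 on NaPB replicate 4 (1.83 and 1.36).

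Likeness of pattern was measured as the root mean square difference between log2 values over the 8 arrays, each gene centred on its own mean, among 13550 genes with a characterised symbol and no array at the floor (a value up to 2 times the lowest of its array). The genes most like Thrsp were Srxn1, Akr1c19, Ccl9, Sar1b and Ugdh, at 0.23, 0.23, 0.23, 0.24 and 0.26 log2 units. The genes most like Elovl6 were Lrrc24, Ugt2b34, Dysf, E2f2 and Ugdh, at 0.27, 0.33, 0.34, 0.39 and 0.46.
Thrsp came next in order after these for Elovl6 (rank 6, 0.46 log2 units), and Elovl6 had rank 37 for Thrsp. The other 8 genes ranked from 210 (Acaca) to 11405 (Scd1) for Thrsp, with Pnpla3 at 244 and Me1 at 492. All 9 nearest genes read lowest on NaPB replicate 4 among the NaPB arrays, and likeness was taken over the same 8 arrays. Ugdh, for example, read 3.00 to 4.95 on control arrays, 14.2 to 16.7 on NaPB replicates 1 to 3 and 1.63 on NaPB replicate 4.

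Genes around the pathway were taken in 6 lists. Of their 86 genes none was called in either direction by limma with all arrays, while 10 had an unadjusted p below 0.05 (10.1% of all genes did). Among 12 partners of fatty acid synthesis (median log2 0.18), the smallest p belonged to Scd3, to Pgd, a pentose phosphate enzyme gene (0.69 ± 0.43), and to Slc25a1, the mitochondrial citrate carrier gene (0.46 ± 0.38). Pgd and Slc25a1 read higher on NaPB replicates 1 to 3 than on any control array and lower on NaPB replicate 4.
Among 15 other genes of elongation and desaturation (median 0.02), Elovl1, an elongase gene of very long chains, followed the pattern of Elovl6. It read 16.5 to 27.7 on control arrays, 54.5, 60.9 and 60.9 on NaPB replicates 1 to 3 and 9.91 on NaPB replicate 4, and it rose without NaPB replicate 4 (limma adjusted p = 0.0282). Elovl3, an elongase gene with male-typical expression in mouse liver, went the other way, with 5.16 to 18.0 on control and 1.501, 3.498, 6.13 and 0.582 on NaPB arrays (−2.22 ± 0.68, limma adjusted p = 0.223). Elovl7 had the next smallest p, and 6 of its 8 arrays were at the floor. Hacd1, a dehydratase gene of the elongation cycle, was called without both arrays that stood apart (limma adjusted p = 0.0346).

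Of 21 regulators (median log2 −0.13), 15 were below 0, as were 10116 of all 20738 genes. Without NaPB replicate 4 the median of the 21 was 0.07. On that array their mean log2 deviation from control was −0.66. Irs2, which encodes an insulin receptor substrate, read 6.67 to 13.0 on control and 2.91 to 5.03 on NaPB arrays. Its diets did not overlap, NaPB replicate 4 included, being lower on NaPB as were 4.31% of all genes. The log2 fold change of Irs2, −1.10 ± 0.31, did not pass (limma adjusted p = 0.167). Usf1 (−0.54 ± 0.30) and Srebf2 (−0.51 ± 0.31) had the next smallest p. Mlxipl, which encodes ChREBP, had a log2 fold change of −0.13 with all arrays and 0.53 without NaPB replicate 4, and Nr1h3, which encodes LXRα, 0.15 and 0.48; these were named after their values were seen.
A list of 11 genes under ChREBP (median −0.03) held genes of glycolysis and fructose use, and also G6pc, Fgf21 and Txnip. Tkfc, the triokinase gene, was higher with no overlap (8.72 to 15.7 on control, 16.8 to 25.1 on NaPB, log2 0.78 ± 0.29). G6pc, glucose-6-phosphatase, was lower with no overlap (38.2 to 55.3 against 13.5 to 31.8, log2 −0.94 ± 0.32). Neither passed (limma adjusted p of 0.36 and 0.278). Of all genes, 2.72% were higher and 4.31% lower with no overlap. Gpd1, which makes glycerol 3-phosphate, had the next smallest p (−0.58 ± 0.30).

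Among 22 genes of triglyceride synthesis and lipid droplets (median log2 −0.12), the smallest p belonged to Pnpla2, the triglyceride lipase ATGL, to Agpat2, an acyltransferase gene, and to Plin5, a droplet coat gene. Pnpla2 was 1.14 to 1.88 on control and 2.37 to 3.07 on NaPB arrays (0.85 ± 0.26, limma adjusted p = 0.228), with NaPB replicate 4 the highest. Agpat2 was 31.3 to 53.9 on control and 15.6 to 28.4 on NaPB arrays (−0.87 ± 0.30, limma adjusted p = 0.3). The values of Pnpla2 and Agpat2 did not overlap between diets, as was so for 7.04% of all genes in either direction.
Plin5 did overlap (−0.80 ± 0.33). Plin4, another droplet coat gene, read 0.583 to 0.848 on control and 0.197, 0.291 and 0.210 on NaPB replicates 1 to 3, and 0.891 on NaPB replicate 4. It fell without that array (−1.57 ± 0.26, limma adjusted p = 0.0251). Mttp, the lipoprotein assembly gene, was called higher without both arrays that stood apart (limma adjusted p = 0.038).
In a list of 5 liver genes that respond to thyroid hormone, taken because Thrsp and Me1 do, the median log2 was −0.01. Dio1, the type 1 deiodinase gene, was 1.15 ± 0.40 (limma adjusted p = 0.308) by the brightest of 3 features, of which the lowest gave 0.10. Bcl3 was 0.70 ± 0.27 and Klf9 −0.73 ± 0.33, and neither passed. Bcl3 was higher on NaPB with no overlap, as were 2.72% of all genes.

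**Figure D5:**
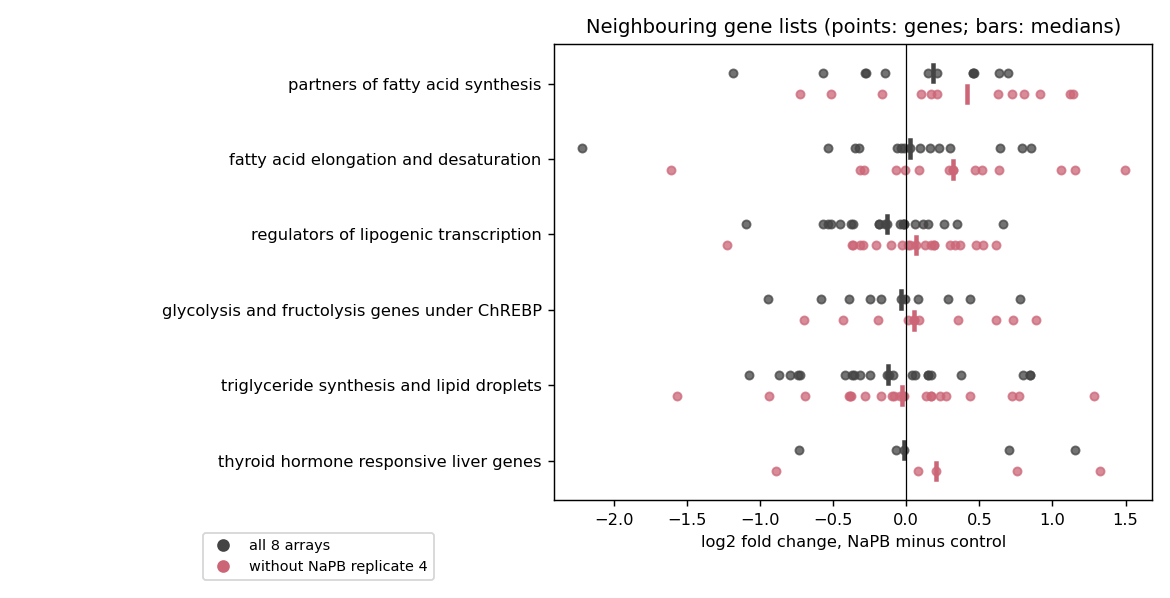
Log2 fold change (NaPB minus control) of every gene in the 6 neighbouring lists, with all 8 arrays (grey) and without NaPB replicate 4 (red), bars marking medians. The medians with all arrays lie between −0.13 and 0.18, and Elovl3 at −2.22 is the lowest point.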

How the data were processed

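Each array was deposited as 1 linear intensity per feature. Per the labels, Isogen and RNeasy columns were used for total RNA, and Cy3 cRNA was hybridised. The authors quantified scans with Agilent Feature Extraction 10.7, per the submitters' processing notes. For background correction, scaling and flagging, the sources used here name no method. The table held 62976 features, 31465 with 1 gene symbol and 31511 without. Symbols were updated through RefSeq tables of GRCm38.p6, by accession (29050 features), symbol (2061) or synonym (349), and 5 had no match.

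Log2 of the deposited intensity was fitted with no pseudocount, scaling or filter, each gene through its feature of highest mean log2 value, in limma 3.58.1 (R 4.3.3; lmFit and eBayes, two-sided, Benjamini-Hochberg over 20738 genes). Single features were fitted over 31465. ± values are limma standard errors. The number of arrays limits precision. The replicate numbers are shared by the diets, but no label says that they pair the arrays, so they were not taken as pairs. Deviations of same-numbered arrays correlated at 0.23, −0.29, 0.04 and 0.23. These correlations also carry each array's general shift and cannot decide whether arrays were paired. The 10 genes, the lists, the naming rule (all 10; 3 genes of smallest p and any called per list; 5 nearest to Thrsp and to Elovl6) and the alternatives were chosen with earlier results of these data known. Genes called only without arrays were named after their values were seen. Marker lists of 10 cell types were summed; S100a8 was the only marker called. Alternatives were other scalings, filters, feature rules, pseudocounts, variance models, array weights, a replicate block, a threshold of 0.1 and leaving out arrays.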

Additional observations from a re-analysis of the deposited data

Results flagged for a closer look

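In 20 groups of 4 arrays (10 genes on each diet), the highest or lowest array's gap to its nearest neighbour, as a share of the group's log2 range, was compared with Dixon's critical value for 4 samples. It was exceeded in 5 groups, where chance gives about 1 in 20. For 3 of them NaPB replicate 4 was the low array: Elovl6 (ratio 0.884, intensity 0.973), Srebf1 (0.874, intensity 0.249) and Thrsp (0.83, intensity 5.01). In the control group of Thrsp, control replicate 1 was high (0.935, intensity 14.9), and in that of Elovl5, control replicate 2 was low (0.85, intensity 5.26).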

How the results depend on the processing

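With all 8 arrays none of the 10 genes was called, and this count changed in 3 of the fits run: 2 were called higher without NaPB replicate 4 (a range of 0 to 2 over the fits leaving out 1 array), and 3 without control replicate 1 and NaPB replicate 4 together and with array weights. No fit called any of the 10 lower. Elovl6 and Thrsp were called in 3 of 21 alternatives each, and Pnpla3 in 2. With array weights the log2 fold changes were 2.72, 2.01 and 1.17 (limma adjusted p = 0.0101, 0.0238 and 0.0484). Acly turned to 0.27 with array weights, 0.28 without NaPB replicate 4 and 0.43 without both arrays (range −0.87 to 0.28 with 1 array left out), and Me1 to −0.13 without NaPB replicate 1 (range −0.13 to 1.03). The cause was not tested. The median of the 10 ran from −0.01 to 0.78 with 1 array left out.

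In the lists, which had no call with all arrays, elongation and desaturation had 1 higher with array weights and without NaPB replicate 4 (range 0 to 1), and 2 without both arrays. The triglyceride list had 1 lower with quantile normalization (Agpat2, log2 −0.96), with array weights, without NaPB replicate 4 (range 0 to 1) and without both arrays, and 1 higher with the mean of all features, with array weights and without both arrays. The regulators had 1 lower with array weights (Irs2), and the partners 1 higher without both arrays. Of all genes, 3.92% were called with array weights, 1.76% without NaPB replicate 4 and 2.75% without both arrays. The shares of all genes called with quantile normalization and with the mean of all features are not given here. The list counts of those fits therefore cannot be judged against all genes. The replicate block, which is not a known pairing, called 0 of the 10 genes (Elovl6 limma adjusted p = 0.24). The other scalings, filters, pseudocounts and the threshold of 0.1 changed no count for the 10 genes. Low signal limits Elovl7 and the dimmer Pnpla3 feature, which had 6 and 1 arrays at the floor.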
